A study of Mus musculus with 4 samples.

Results

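The genes of MHC class I antigen presentation were taken as 10 symbols, *H2-K1*, *H2-D1*, *B2m*, *Tap1*, *Tap2*, *Tapbp*, *Psmb8*, *Psmb9*, *Nlrc5* and *Erap1*, that cover the class I chains, peptide transport, loading and trimming, the immunoproteasome and the transactivator of the pathway. All 10 were among the 40213 gene symbols of the count files, and all 10 were among the 12393 genes kept for testing by a filter on low values. MHC class I molecules carry short peptides of the cell's own proteins to the cell surface, where CD8+ T cells read them. Proteasomes cut the proteins, the TAP transporter moves the peptides into the endoplasmic reticulum, and tapasin with its chaperones loads them onto a heavy chain paired with β2-microglobulin. cDC1s, the dendritic cells that CD24+ progenitors can give rise to, are known for presenting captured proteins on class I as well (cross-presentation).

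RNA was sequenced in bulk from CD24+ emergency progenitors (EPs), CD11c+CD117+ cells sorted from the spleens of mice after Flt3L-Ig, a fusion protein of the growth factor that expands dendritic cells and their progenitors. The WT group was TopBP1 fl/fl littermates, and the group labelled TopBP1 cKO carried the same floxed alleles together with CD11c-cre, which recombines in cells that have switched on the CD11c promoter. All mice received Flt3L-Ig (10 μg, i.p.) on day 0 and again on day 3, with the sort on day 9, and the methods give an age of 7 to 10 weeks for mice of the study. Each group had 2 libraries, with 14561583 and 15193831 counts for WT and 15148032 and 15093476 for the cKO-labelled ones. Neither the labels nor the methods say whether the libraries came from separate mice or from pools, so P values measure the spread between these libraries, which may be technical. Levels are given as CPM, counts scaled to library size with TMM factors. A change is a log2 fold change of the cKO-labelled libraries over WT, and FDR is the Benjamini–Hochberg adjusted P value of the quasi-likelihood test of edgeR over all genes tested.

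In the floxed gene itself, *Topbp1*, the WT libraries held 1102 and 1143 counts, and replicates 1 and 2 labelled TopBP1 cKO held 773 and 1279. The count of replicate 2 was thus above both WT libraries and went against its label, for which reason this group is called cKO-labelled, and its libraries cKO replicate 1 and cKO replicate 2. The log2 fold change of *Topbp1* was −0.20 (FDR 0.774). It was 0.11 without cKO replicate 1 and −0.61 without cKO replicate 2 (FDR 0.0104), where the single library left in a group is assumed to vary like those of the other group. cKO replicate 2 also stood apart over the whole table, being the lowest of the 4 libraries for 35.0% of the genes tested and the highest for 34.8%.

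The identity of the sorted cells was read from their defining markers. *Itgax*, the gene of CD11c, had 620.1 and 614 CPM in the WT libraries and 689.9 and 649 CPM in the cKO-labelled ones. *Kit*, the gene of CD117, had 481 and 475 CPM against 395 and 383 CPM, and *Cd24a* had 972 and 926 CPM against 884.5 and 756 CPM. Transcripts of all 3 gate markers were therefore present in every library, with *Kit* and *Cd24a* lower in both cKO-labelled libraries. The receptor gene *Flt3* had 717 and 699 CPM against 663 and 614 CPM, and the cDC1 gene *Xcr1* had 734 and 753 CPM against 626 and 701 CPM. Of the 8 EP markers examined, 6 were below both WT libraries in both cKO-labelled ones (20.8% of all genes tested), and 1, *Itgax*, was above them (22.8% of all genes tested). Their median log2 fold change was −0.18, *Kit* was lower at an unadjusted P value below 0.05 (3.77% of all genes tested), and edgeR called 0 at FDR < 0.05.

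Over all genes tested, FDR < 0.05 was reached by 10 genes (0.0807%) that were higher and 3 (0.0242%) that were lower in the cKO-labelled libraries. The unadjusted P value was below 0.05 for 861 genes on the higher side (6.95%) and 467 on the lower (3.77%). Both libraries of one group lay beyond both of the other for 2824 genes that were higher (22.8%) and 2574 that were lower (20.8%). None of the 10 class I presentation genes was among those called by edgeR at FDR < 0.05 in either direction, none had an unadjusted P value below 0.05, and the likelihood ratio test of edgeR, the Wald test of DESeq2 and limma-voom also called 0 of the 10. The groups did not overlap for 1 gene that was higher, *B2m*, and for 3 that were lower, *H2-D1*, *Tap1* and *Tapbp*, beside the shares of all genes just given. The median log2 fold change of the 10 genes was −0.07, with 3 above and 7 below 0, beside a median of 0.01 over all genes tested. In terms of folds, the lowest limit of the 95% intervals was 0.676 (*H2-D1*, interval 0.676 to 1.13) and the highest 1.32 (*Erap1*, interval 0.850 to 1.32). In bulk samples, fewer cells of a type and less RNA per cell cannot be told apart.

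**Figure D1:**
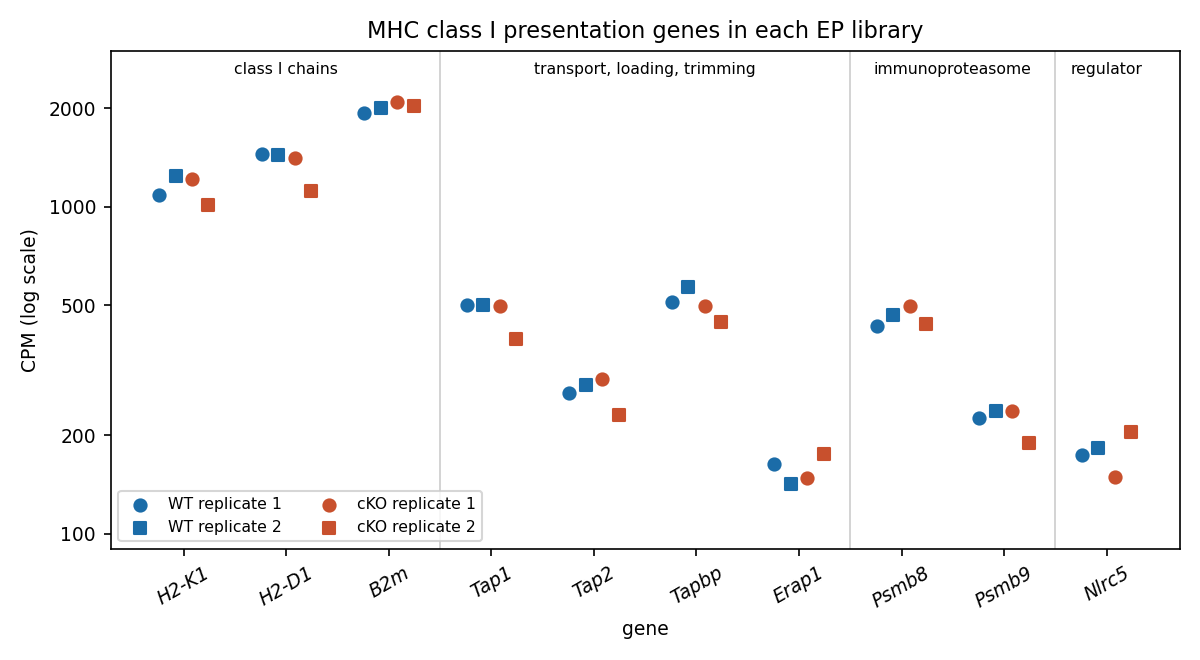
Level of the 10 class I presentation genes in each of the 4 EP libraries, in CPM on a log axis, with WT libraries in blue, the cKO-labelled ones in red, and circles and squares for replicates 1 and 2. The groups overlap for 6 of the 10 genes, and cKO replicate 2 is the lowest point for 6 genes and the highest for *Nlrc5* and *Erap1*.

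Among themselves, the 10 genes covered a wide range of levels. Per length of transcript, *B2m* was the highest with a mean of 2345 CPM per kb, rank 11 of the 11500 genes tested that had a length. *H2-K1* (704 CPM per kb) and *H2-D1* (644 CPM per kb) followed, and their libraries overlapped. *Psmb8* stood at 282 CPM per kb, above *Tapbp* (195), *Psmb9* (165) and *Tap1* (160.2), in which neighbours overlapped. *Tap2* had 78.6 CPM per kb, below all libraries of *Tap1*. *Erap1* (27.8 CPM per kb) and *Nlrc5* (25.7 CPM per kb) were the lowest and overlapped. The length used for *Nlrc5* is that of a transcript with 2.75% of the gene's counts, which limits its place in this order.

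The class I chains are the heavy chains that bind peptide, *H2-K1* and *H2-D1*, and β2-microglobulin, the light chain that all of them need. Their promoters are shown because the known regulators of the pathway act there: NF-κB, interferon regulatory factors, and the NLRC5 complex, which is known to use a module with a CRE-like box and an inverted CCAAT box. The sequences are from RefSeq (GRCm38.p6), give the 250 bases before the transcript start on the strand of the gene, and come from chr17:34000348-34000597 (minus strand, *H2-K1*), chr17:35262844-35263093 (plus strand, *H2-D1*) and chr2:122147437-122147686 (plus strand, *B2m*). Capitals mark the letters GGGATTCCC (NF-κB type), GAAANNGAA (IRF type), TGACG (CRE type) and CCAAT, each searched on both strands, so that a CCAAT of the other strand reads ATTGG.
H2-K1: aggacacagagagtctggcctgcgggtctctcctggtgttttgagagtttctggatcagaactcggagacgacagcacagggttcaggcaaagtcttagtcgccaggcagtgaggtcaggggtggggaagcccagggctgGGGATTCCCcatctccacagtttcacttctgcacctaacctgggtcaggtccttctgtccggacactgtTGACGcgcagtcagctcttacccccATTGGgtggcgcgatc
H2-D1: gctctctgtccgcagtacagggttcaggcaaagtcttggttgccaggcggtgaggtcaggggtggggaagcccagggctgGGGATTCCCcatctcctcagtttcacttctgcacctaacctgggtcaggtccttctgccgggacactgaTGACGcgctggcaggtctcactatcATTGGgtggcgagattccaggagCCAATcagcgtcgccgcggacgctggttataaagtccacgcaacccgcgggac
B2m: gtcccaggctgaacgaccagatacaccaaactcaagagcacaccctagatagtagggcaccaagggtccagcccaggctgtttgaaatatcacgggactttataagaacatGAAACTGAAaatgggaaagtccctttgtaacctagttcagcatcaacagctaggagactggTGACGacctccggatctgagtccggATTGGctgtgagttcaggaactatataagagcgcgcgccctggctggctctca

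The *H2-K1* and *H2-D1* windows share the NF-κB type letters, which 0.301% of the 32851 promoter windows hold, and in both the first base of the NF-κB type match lay 69 bases before the first base of the CRE type match. All 3 windows hold TGACG, then 20 bases, then ATTGG, an arrangement found in 30 windows of 26 genes (0.0913%). The spacing was looked at after the matches were seen, and the class I-like gene *H2-M3* was the only further gene with it on the lists examined. The IRF type letters were found in 7.13% of all windows and, among the 8 members with a window, in *B2m* and *Erap1*. These letters have GAAA before GAA. The *H2-K1* and *H2-D1* windows both hold tttcacttc, which on the other strand has GAA before GAAA, an order that was not searched. The lack of a match in these windows therefore does not mean that they lack an IRF type site. TGACG was found in 17.8% of all windows and in 5 of the 8, and CCAAT in 33.8% and in 6 of the 8, where the overlapping windows of *Tap1* and *Psmb9* hold the same TGACG and the same CCAAT. A match is a description of letters, and binding was not measured in the data used here.

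*H2-K1* had 1087 and 1245 CPM in the WT libraries and 1214 and 1016 CPM in the cKO-labelled ones. The groups overlapped, the highest value being that of WT replicate 2 and the lowest that of cKO replicate 2, and the log2 fold change was −0.06 (SE 0.16, 95% interval −0.43 to 0.30, FDR 0.919). *H2-D1* had 1451 and 1436 CPM in WT against 1413 and 1114 CPM. cKO replicate 1 was close to WT and replicate 2 was below the other 3 libraries. Its log2 fold change was −0.19 (SE 0.16, 95% interval −0.57 to 0.18, FDR 0.709), which was −0.38 without cKO replicate 1 (FDR 0.0168) and −0.04 without cKO replicate 2. The ratio of *H2-K1* to *H2-D1* in CPM was 0.749 and 0.867 in WT and 0.859 and 0.912 in the cKO-labelled libraries. These genes share sequence: 22.8% of the 31-base sequences of *H2-K1* transcripts and 26.7% of those of *H2-D1* occur in another gene, most often in each other, so how the authors' counting placed such reads bears on both.

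*B2m* had 1937 and 2008 CPM in the WT libraries and 2085 and 2037 CPM in the cKO-labelled ones. It was the steadiest of the 10 genes, with the highest library 1.08 times the lowest. Both cKO-labelled libraries were above both WT libraries, but the log2 fold change of 0.06 (SE 0.14, 95% interval −0.27 to 0.40, FDR 0.911) was smaller than its error. None of its 31-base sequences occurs in another gene.

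Peptide transport rests on *Tap1* and *Tap2*, the subunits of the TAP transporter. *Tap1* had 500.1 and 501 CPM in the WT libraries and 496 and 395 CPM in the cKO-labelled ones. As with *H2-D1*, replicate 1 was close to WT and replicate 2 lower, giving a log2 fold change of −0.17 (SE 0.15, 95% interval −0.50 to 0.17, FDR 0.721). The value was −0.34 without cKO replicate 1 (FDR 0.0287) and −0.02 without cKO replicate 2. *Tap2* had 269.8 and 285 CPM in WT and 297 and 231 CPM in the others, with the highest and the lowest of its 4 values both in the cKO-labelled group. Its log2 fold change was −0.07 (SE 0.15, 95% interval −0.41 to 0.27, FDR 0.898).

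*Tapbp*, the gene of tapasin, which holds empty class I molecules at the transporter, had 511 and 569 CPM in the WT libraries and 498 and 443.8 CPM in the cKO-labelled ones. The groups did not overlap, and the log2 fold change of −0.20 (SE 0.13, 95% interval −0.51 to 0.11, FDR 0.635) was the lowest of the 10. With a library left out it ran from −0.28 to −0.13. *Erap1*, the aminopeptidase that trims peptides in the endoplasmic reticulum, had 163 and 142 CPM in WT and 148 and 175 CPM in the others. The groups overlapped, with a log2 fold change of 0.08 (SE 0.14, 95% interval −0.23 to 0.40, FDR 0.868). In the RefSeq annotation *Erap1* overlaps *Cast*, *Tapbp* overlaps *Gm19412* and *B2m* overlaps *Patl2*, and the sources used here do not say whether counting used strand.

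*Psmb9*, *Tap1*, *Psmb8* and *Tap2* lie next to one another on chromosome 17, in that order, and 7 of the 10 genes are on this chromosome, with *B2m* on chromosome 2, *Nlrc5* on 8 and *Erap1* on 13. *Psmb9* and *Tap1* run in opposite directions from one promoter region. The 225 bases between their RefSeq starts (GRCm38.p6, chr17:34187331-34187555, plus strand, toward *Tap1*) are shown as the sequence that the transporter gene and the immunoproteasome gene have in common, with the letters CCAAT and TGACG in capitals.
Psmb9–Tap1: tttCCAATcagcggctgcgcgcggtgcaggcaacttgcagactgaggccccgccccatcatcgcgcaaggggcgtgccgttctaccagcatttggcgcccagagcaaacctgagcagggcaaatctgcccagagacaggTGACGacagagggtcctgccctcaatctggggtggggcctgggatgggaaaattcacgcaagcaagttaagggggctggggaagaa

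*Psmb8* and *Psmb9* encode LMP7 and LMP2, the catalytic subunits that replace constitutive ones in the immunoproteasome. *Psmb8* had 433 and 468 CPM in the WT libraries and 498 and 439 CPM in the cKO-labelled ones, which overlapped (log2 fold change 0.06, SE 0.13, 95% interval −0.25 to 0.36, FDR 0.913). *Psmb9* had 227 and 238 CPM in WT and 238 and 189.8 CPM in the others. Replicate 2 of the cKO-labelled group was again the lowest library, and the log2 fold change was −0.12 (SE 0.14, 95% interval −0.44 to 0.20, FDR 0.799). *Psmb9* and *Tap1*, on either side of the sequence above, were both close to WT in cKO replicate 1 and both below it in replicate 2. This was not particular to them. cKO replicate 2 was also the lowest library for *H2-K1*, *H2-D1*, *Tap2* and *Tapbp*, and for 35.0% of all genes tested. A part of the shared sequence in these values was not tested.

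The make-up of the proteasome was followed as the ratio of each immunoproteasome subunit to the constitutive subunit it replaces, per length of transcript. The ratio of *Psmb8* to *Psmb5* was 7.03 and 6.77 in WT against 6.08 and 6.25 in the cKO-labelled libraries. The ratio of *Psmb9* to *Psmb6* was 2.26 and 2.25 in WT and 1.86 and 1.74 in the others. Both of these ratios were lower in each cKO-labelled library than in either WT library. Among levels of single genes, 20.8% of all genes tested were lower in this way, and the share was not computed for ratios. The differences on the log2 scale were −0.16 (pooled SD 0.0337) and −0.33 (pooled SD 0.0451), where each SD rests on 2 libraries a group. The ratio of *Psmb10* to *Psmb7* was 0.626 and 0.630 in WT and 0.634 and 0.538 in the others, a log2 difference of −0.10 (pooled SD 0.119) with overlapping groups. This difference was −0.22 without cKO replicate 1 and turned to 0.014 without cKO replicate 2. Exact two-sided permutation tests over the 4 libraries gave P = 0.33, 0.33 and 1 for the 3 pairs, and 0.5, 0.5 and 1 after Benjamini–Hochberg adjustment, where 0.33 is the smallest P value that 2 libraries against 2 allow. Of the denominators, *Psmb6* had 59.2 and 62.5 CPM in WT and 75.6 and 64.2 CPM in the others (log2 fold change 0.20, FDR 0.634), and *Psmb5* a log2 fold change of 0.22 (FDR 0.635).

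**Figure D2:**
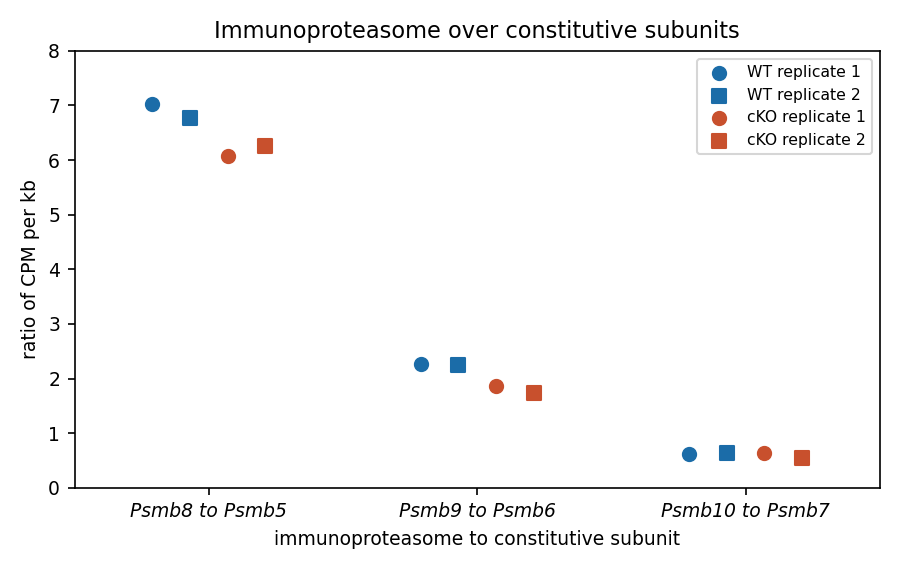
Ratio of CPM per kb of each immunoproteasome subunit to the constitutive subunit it replaces, with one point for each library (blue, WT; red, cKO-labelled; circles and squares, replicates 1 and 2). The red points of *Psmb8* to *Psmb5* (6.08 and 6.25) and of *Psmb9* to *Psmb6* (1.86 and 1.74) lie below the blue ones, and those of *Psmb10* to *Psmb7* overlap with them. In levels of single genes, 20.8% of all genes tested lie below WT in both cKO-labelled libraries.

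*Nlrc5*, the transactivator of class I genes, had 175 and 183 CPM in the WT libraries and 149 and 205 CPM in the cKO-labelled ones. The cKO-labelled libraries lay on either side of WT, with the widest spread of the 10 genes, the highest library being 1.38 times the lowest. The log2 fold change was −0.01 (SE 0.16, 95% interval −0.39 to 0.36, FDR 0.984), which was 0.20 without cKO replicate 1 and −0.27 without cKO replicate 2. The gene overlaps *9330175E14Rik*, *Gm51584* and *Mir7072*.

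**Figure D3:**
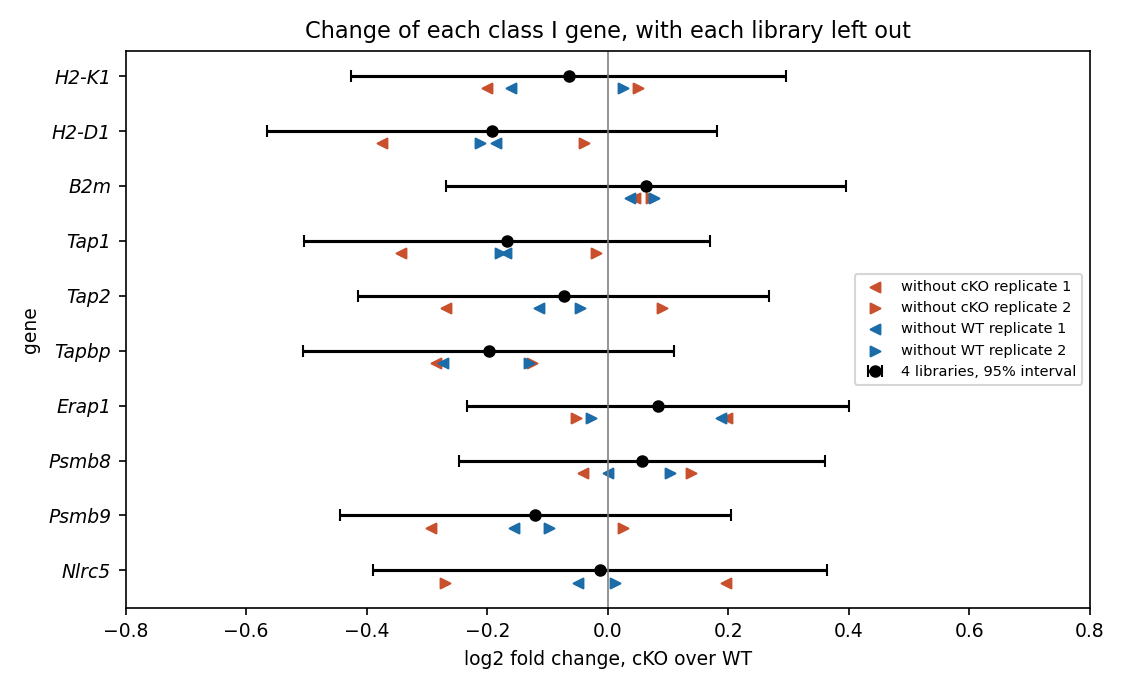
Log2 fold change of each class I presentation gene, cKO-labelled libraries over WT (black, all 4 libraries with 95% intervals), with the values after leaving out one library as triangles. All 10 intervals include 0, and leaving out cKO replicate 1 moves *H2-D1* to −0.38 and *Tap1* to −0.34.

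Considered by library, cKO replicate 2 was the lowest of the 4 for 6 of the 10 genes, *H2-K1*, *H2-D1*, *Tap1*, *Tap2*, *Tapbp* and *Psmb9*, and the highest for *Nlrc5* and *Erap1*. Beside this, it was the lowest for 35.0% and the highest for 34.8% of all genes tested. Together the 10 genes held 0.656% of the counts of WT replicate 1 (95% Wilson interval 0.652% to 0.660%), 0.704% of those of WT replicate 2, 0.708% of cKO replicate 1 and 0.640% of cKO replicate 2. WT replicate 1 and cKO replicate 2 were the low libraries, so the groups overlapped, and the interval covers counting error only. The coefficient of variation over the 4 libraries had a median of 10.2% for the 10 genes, near the 9.22% of the 1274 genes that were at least as abundant as the lowest of them.

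The pattern over libraries was summarised by the median of the 10 genes' log2 CPM, each centred on its own mean. It was 0.01 and 0.09 in the WT libraries, 0.07 in cKO replicate 1 and −0.17 in cKO replicate 2. *Psmb9* lay closest to it, with a Euclidean distance of 0.0648 over the 4 libraries, and *Nlrc5* (0.503) and *Erap1* (0.436) farthest. Among 2003 other genes with a mean of at least 100 CPM, the 5 nearest to the pattern were *Snx1* (distance 0.0121), *Copz1* (0.0197), *Pik3cd* (0.0246), *Ilk* (0.0328) and *Gm6139* (0.0332). *Snx1*, a sorting nexin of endosomes, had 163 and 170.4 CPM in WT and 170.8 and 144 CPM in the others. A likeness over 4 libraries is a description.

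The files count each transcript, and the 10 genes had 38 transcripts, of which 34 had a count and 31 were tested. The quasi-likelihood test of edgeR on single transcripts called 0 of 29581 (0%) at FDR < 0.05, and 2018 (6.82%) had an unadjusted P value below 0.05. Of the 31 transcripts, 3 had such a value, 2 of *H2-K1* and 1 of *Psmb9*. Genes with a single transcript were *H2-D1*, *B2m*, *Tap2* and *Psmb8*. The main transcript of *H2-K1*, NM_001001892.3, had 12999 and 15682 counts in WT and 15301 and 12915 in the others. That is from 82.2% to 84.5% of the gene's counts in each library. A minor transcript of the gene, XM_006523678.5, had 469 counts in WT replicate 1 and 0 in the other libraries. The counts of *Nlrc5* were spread over 6 transcripts: XM_006531162.3 held from 31.6% to 49.3% of them and XM_006531165.3 from 24.4% to 44.4%. How reads that fit several transcripts were assigned is not given in the sources used here, and these shares depend on it.

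Around the 10 genes, 75 others of the class I pathway were examined on 8 lists, and 70 of them were tested. At FDR < 0.05, edgeR's quasi-likelihood test called 0 of the 70, whereas the likelihood ratio test called 1 higher and 1 lower (180 and 54 of all 12393 genes), the Wald test of DESeq2 1 and 2 (107 and 34 of all genes), and limma-voom 0. At an unadjusted P value below 0.05, 4 were higher and 8 lower, beside 6.95% and 3.77% of all genes. The groups did not overlap for 20 of the 70 that were higher and 19 that were lower, beside 22.8% and 20.8% of all genes, and the median log2 fold change was −0.01. In the fits that left out a library, 12 were called higher and 12 lower without cKO replicate 1, where 1432 and 1193 of all genes were, 1 and 1 without cKO replicate 2, where 142 and 81 of all genes were, and 0 without either WT library.

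The other class I and class I-like chains had 14 of 18 genes tested, with a median log2 fold change of −0.11, 1 higher and 3 lower at an unadjusted P value below 0.05, beside 6.95% and 3.77% of all genes. *H2-Q7*, a nonclassical chain of the Qa-2 family, had 55.6 and 62.1 CPM in the WT libraries and 72.5 and 94.3 CPM in the cKO-labelled ones (log2 fold change 0.50, SE 0.16, FDR 0.351). The log2 fold change of *H2-Q7* was 0.68 without cKO replicate 1 and 0.29 without cKO replicate 2. *H2-T24* went the other way, with 56.4 and 56.2 CPM against 44.0 and 34.1 CPM (log2 fold change −0.53, SE 0.16, FDR 0.346). *Cd1d1*, which presents lipids to NKT cells, had a log2 fold change of −0.49 (FDR 0.365), and *H2-M5* one of −0.73 (FDR 0.418). Of the 31-base sequences of *H2-Q7*, 39.1% occur in another gene, for *H2-T24* 6.43%, so the value of *H2-Q7* is uncertain. *H2-K1* and *H2-D1* held 72.9% of the counts of the class I *H2* genes examined in both WT libraries, 72.5% in cKO replicate 1 and 68.2% in cKO replicate 2.

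The chaperones of class I folding and peptide loading had 9 genes tested and a median log2 fold change of 0.14. Of these, 1 was higher at an unadjusted P value below 0.05 (6.95% of all genes), and for 6 the cKO-labelled libraries were both above WT (22.8% of all genes). *Calr*, the gene of calreticulin, which holds class I chains in the loading complex, had 896 and 972 CPM in the WT libraries and 1070.2 and 1397 CPM in the cKO-labelled ones. Its log2 fold change was 0.40 (SE 0.17, FDR 0.456). *Pdia3*, the partner of tapasin, had 1038 and 1109 CPM against 1104 and 1261 CPM (0.14, FDR 0.765), and *Tapbpl*, a tapasin-related peptide editor, 82.7 and 84.9 CPM against 84.8 and 73.4 CPM (−0.08, FDR 0.854). Of the 4 libraries, cKO replicate 2 had the highest level of *Calr* and *Pdia3* and the lowest of *H2-K1* and *H2-D1*.

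The proteasome partners include the PA28 activator subunits *Psme1* and *Psme2* and the assembly factor *Pomp*. The 6 genes tested had a median of −0.04. None of them had an unadjusted P value below 0.05, beside 6.95% of all genes higher and 3.77% lower. *Psme1* had 761 and 748 CPM in the WT libraries and 685 and 642 CPM in the cKO-labelled ones (log2 fold change −0.19, FDR 0.643). The 3 constitutive catalytic subunits had a median of 0.20, again with none below that P value, beside the same shares of all genes. The cytosolic peptidases had 7 of 8 genes tested, with a median of −0.02 and 1 gene, *Thop1*, higher at an unadjusted P value below 0.05 (6.95% of all genes). *Thop1*, which destroys peptides before they reach TAP, had 5.94 and 6.29 CPM against 7.94 and 12.0 CPM (log2 fold change 0.71, SE 0.27, FDR 0.417).

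Among 14 regulators of class I genes, 4 were lower and 0 higher at an unadjusted P value below 0.05, beside 3.77% and 6.95% of all genes, and their median log2 fold change was −0.18. *Stat2*, part of the factor that type I interferons activate, had 436 and 465 CPM in the WT libraries and 326 and 296 CPM in the cKO-labelled ones. Its log2 fold change was −0.53 (SE 0.12, FDR 0.307). *Irf9*, the DNA-binding partner of STAT2, had 249 and 233 CPM against 211 and 171 CPM (−0.33, SE 0.14, FDR 0.456). For *Irf9* the value was −0.49 without cKO replicate 1 and −0.20 without cKO replicate 2. The cKO-labelled libraries were below WT for both genes of this complex. *Irf1*, known as an activator of *Tap1*, *Psmb9* and *B2m*, had 208 and 215 CPM against 179.0 and 145 CPM (−0.38, SE 0.14, FDR 0.380). Its value was −0.54 without cKO replicate 1 and −0.25 without cKO replicate 2. *Irf2* had 196 and 189.5 CPM against 158 and 151 CPM (−0.32, SE 0.11, FDR 0.380). In all, both cKO-labelled libraries were below both WT libraries for 6 of the 14 regulators and above them for 1, beside 20.8% and 22.8% of all genes. *Rfx5*, a DNA-binding subunit of the complex that NLRC5 joins, had 63.3 and 68.9 CPM against 67.4 and 66.0 CPM (0.01, SE 0.12, FDR 0.980).

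Of the 7 interferon receptor and kinase genes, 1 was lower at an unadjusted P value below 0.05 (3.77% of all genes), with a median of −0.11. *Ifngr1*, the ligand-binding chain of the interferon-γ receptor, had 758 and 718 CPM in the WT libraries and 563 and 457 CPM in the cKO-labelled ones. Both were below WT, as they were for 3 of the 7 genes (20.8% of all genes), *Jak2* and *Tyk2* being the others. The log2 fold change of *Ifngr1* was −0.53 (SE 0.15, FDR 0.319). Its partner *Ifngr2* had 82.6 and 74.6 CPM against 81.7 and 76.2 CPM, and the type I receptor chain *Ifnar1* 149 and 154 CPM against 151 and 149 CPM, both with overlapping groups. The 18 interferon-stimulated genes examined, *Stat2* among them, had a median of −0.27, with 1 higher and 6 lower at an unadjusted P value below 0.05, beside 6.95% and 3.77% of all genes. *Irf7* had 433 and 463 CPM against 367 and 294 CPM (−0.44, FDR 0.360), whereas *Gbp2*, a target of interferon-γ, had 16.1 and 16.3 CPM against 16.1 and 15.5 CPM (−0.03, FDR 0.967).

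Genes of cross-presentation had 10 members tested and a median of 0.10, with 1 higher at an unadjusted P value below 0.05, close to the 6.95% of all genes. *Cybb*, the catalytic subunit of the phagosomal NADPH oxidase, had 100.5 and 101 CPM in the WT libraries and 152 and 188 CPM in the cKO-labelled ones (log2 fold change 0.76, SE 0.14, FDR 0.217). *Wdfy4*, which cDC1s need for cross-presentation, was the most abundant, with 3859 and 3674 CPM against 3847 and 3697 CPM (0.00, SE 0.16, FDR 0.996). *Clec9a*, the receptor for dead cells, had 526 and 564 CPM against 485 and 470.3 CPM (−0.19, FDR 0.620).

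**Figure D4:**
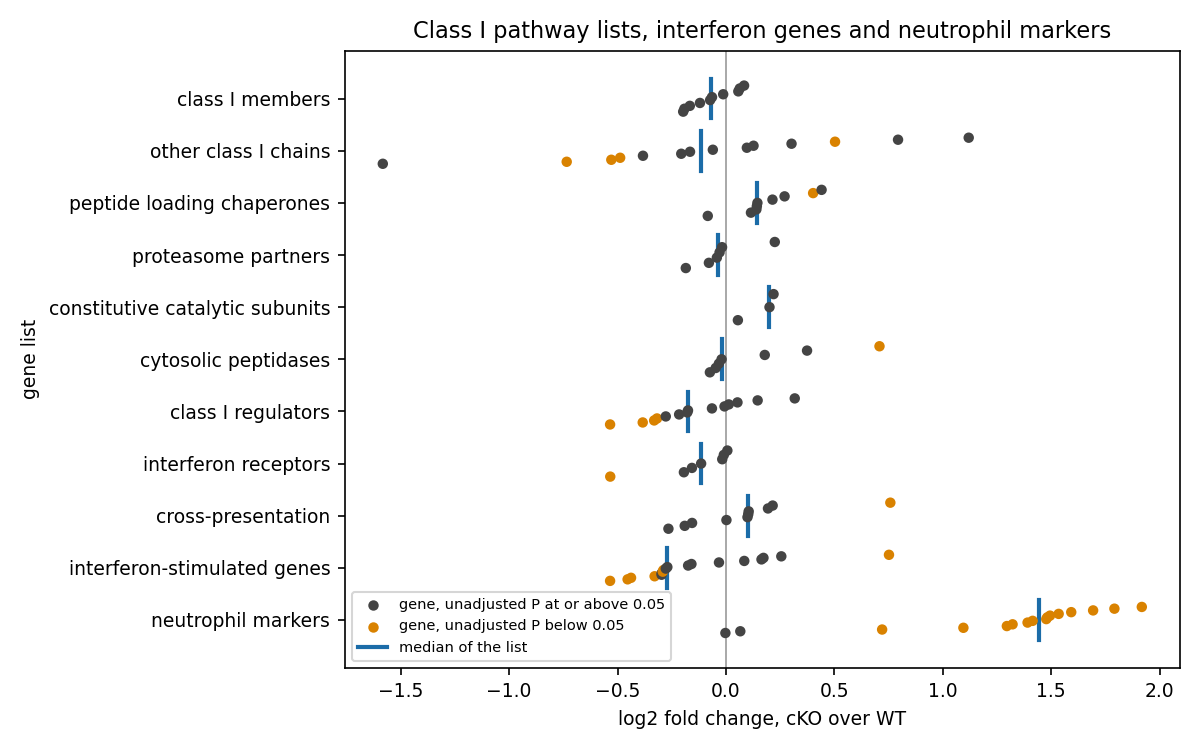
Log2 fold change of each tested gene by list, cKO-labelled libraries over WT, in orange where the unadjusted P value was below 0.05 and in grey otherwise, with the median of each list as a blue line. The class I presentation genes lie within −0.20 and 0.08, the regulators have a median of −0.18, and the neutrophil markers one of 1.45.

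Markers of other cell types were counted beside these values. Neutrophil markers were higher in both cKO-labelled libraries for 14 of 16 genes (22.8% of all genes), 7 of them at FDR < 0.05 (0.0807% of all genes), with a median log2 fold change of 1.45 and a summed level of 1563 and 1301 CPM in WT against 3393 and 2646 CPM. The most abundant over the 4 libraries together was *Mpo*, with 598 and 423 CPM against 874 and 195 CPM, although in cKO replicate 2 it was below *Ngp* (689.7 CPM), and none of the 16 was at 0 in any library. *Cybb* is also a gene of neutrophils, and the part of these cells in its value, as in those of the other genes, was not tested. The summed levels were low for B cells (7 of 8 markers tested, 35.1 and 28.7 CPM against 42.1 and 34.7 CPM), T cells (4 of 7, 11.7 and 12.9 CPM against 22.1 and 14.9 CPM), NK cells (7 of 7, 38.8 and 38.3 CPM against 59.1 and 31.9 CPM), macrophages (6 of 8, 30.1 and 32.8 CPM against 22.3 and 25.4 CPM) and erythroid cells (4 of 6, 15.5 and 12.8 CPM against 17.9 and 18.2 CPM). Their most abundant genes were *Ms4a1*, *Cd4*, *Klrd1*, *Hmox1* and *Hba-a1*. Median log2 fold changes of these lists were 0.41 (B cells), 0.87 (T cells), 0.40 (NK cells), −0.52 (macrophages) and 0.38 (erythroid cells). At an unadjusted P value below 0.05, 2 macrophage markers were lower (3.77% of all genes). On the higher side were 1 T cell and 1 NK cell marker (6.95% of all genes), and no marker of these lists passed FDR < 0.05. pDC markers summed to 202 and 208 CPM in WT and 182 and 176 CPM in the others, mainly *Tcf4*. Of the 7 tested, *Cox6a2* was called higher at FDR < 0.05 (0.0807% of all genes). It had 0 and 3 counts in WT and 183 and 168 in the others, a log2 fold change of 6.69 that was unlike the rest of its list. *Tcf4* (log2 fold change −0.33) and *Bst2* (−0.29) were lower at an unadjusted P value below 0.05 (3.77% of all genes), and the median of the list was −0.02. No marker of these lists that had a row in the files was at 0 in all 4 libraries.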

How the data were processed

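Bulk RNA-seq of CD24+ splenic EPs was analysed in 4 libraries (2 WT, 2 labelled TopBP1 cKO), grouped by the labelled genotype. For each, the authors deposited whole-number read counts per RefSeq transcript with its gene symbol, without normalization. RNA was taken with TaKaRa RNAiso Plus per the labels, whereas the methods name an RNeasy kit, and libraries with the CORALL RNA-seq V2 kit. The submitters' processing notes list fastp, STAR, Salmon and GATK and the build GRCm39, without their roles. How reads shared by transcripts were assigned, the strand setting and any use of molecular identifiers are not given in the sources used here. Without molecular identifiers, reads are not independent molecules.

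Counts were summed per symbol, with 2558 rows that have a symbol but a placeholder for the accession kept in (3.03% to 4.86% of a library's counts). The genes kept by filterByExpr (minimum count 10) were tested with TMM and the quasi-likelihood test of edgeR 4.0.16 in R 4.3.3, with Benjamini–Hochberg adjustment over all 12393. The SE is the log2 fold change over the root of F. CPM used TMM effective library sizes, and lengths were those of the most counted transcript with a match in GENCODE M21. The common dispersion came to 0.0230 (biological coefficient of variation 15.2%). No pair of libraries was a duplicate (chi-square per degree of freedom at least 8.54).

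The alternatives were DESeq2 1.42.0 size factors and Wald test, upper quartile scaling, the likelihood ratio test of edgeR, limma-voom (limma 3.58.1), no filter, at least 10 counts in every library, a replicate block, and leaving out each library. For *Stat2*, *Irf1*, *Irf2*, *Irf9*, *Ifngr1*, *H2-Q7*, *H2-T24* and *Cybb* they were added after the values were seen. Ratios were compared with exact permutation tests in Python 3.11.15 with scipy 1.17.1. Named are the 10 members, *Topbp1*, genes of the lists, and the 5 other genes with a mean of at least 100 CPM nearest to the members' median pattern. The members and lists were chosen with earlier results of these data known. Promoter sequences and gene order are those of RefSeq for GRCm38.p6, with a window for 8 of the 10 members. *Nrdc*, *Ighm* and *Trac*, on the lists, had no row in the count files.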

Additional observations from a re-analysis of the deposited data

How the results depend on the processing

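The main limits are 2 libraries a group, a *Topbp1* count in cKO replicate 2 above both WT libraries despite its label, and an unstated rule for reads shared by transcripts or by class I genes. Depth was not limiting for the 10 genes, which had from 2144 to 31769 counts in each library.

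Of the 10 genes called higher and 3 called lower at FDR < 0.05 by the quasi-likelihood test, the numbers became 180 and 54 with edgeR's likelihood ratio test and 107 and 34 with the DESeq2 Wald test, 16 higher without the filter, and 0 lower with upper quartile scaling. With a library left out they ran from 1 to 1432 and from 0 to 1193. Replicate numbers did not pair the libraries (correlation of same-numbered deviations −0.0313). With the replicate block, 395 genes were higher and 109 lower, and 1 of the other class I pathway genes was higher. None of the 10 class I presentation genes was called with the block or with any other scaling, filter or test, and none was called higher in any of the 12 alternatives. Without cKO replicate 1, *H2-D1* (−0.38) and *Tap1* (−0.34) crossed the threshold on the lower side. That fit rests on a single library in the cKO-labelled group and gave the highest numbers over all genes in both directions. Of the 120 values of these genes, 108 kept their sign and their side of the threshold. Those that turned sign did so with a library left out, in ranges of −0.20 to 0.050 for *H2-K1*, −0.27 to 0.089 for *Tap2*, −0.040 to 0.14 for *Psmb8*, −0.29 to 0.025 for *Psmb9*, −0.27 to 0.20 for *Nlrc5* and −0.052 to 0.20 for *Erap1*. For *Tap2* and *Psmb9* the turn came without cKO replicate 2, for *H2-K1* (0.025 without WT replicate 2) and *Erap1* (−0.027 without WT replicate 2) also without WT replicate 2, and for *Psmb8* (−7.85e-05 without WT replicate 1) and *Nlrc5* (0.012 without WT replicate 2) also without cKO replicate 1. The median of the 10 ran from −0.23 to 0.00254 with a library left out, and *Topbp1* from −0.61 to 0.11. Of the other pathway genes, the likelihood ratio test called 1 higher and 1 lower and the Wald test 1 and 2, and with a library left out the numbers ran from 0 to 12 in each direction. The cause was not tested.

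Of the 8 genes whose alternatives were added later, *Stat2* passed FDR < 0.05 with the likelihood ratio test (0.0219), the Wald test (0.0219) and without either cKO-labelled library (0.000611 without replicate 1, 0.0246 without replicate 2). *Cybb* passed in the same 4 fits and with the block (0.000898), and *Ifngr1* with the Wald test (0.0383) and without cKO replicate 1. *Irf1*, *Irf2*, *Irf9*, *H2-Q7* and *H2-T24* passed without cKO replicate 1 alone. The fit without cKO replicate 1 rests on a single library in that group. It called more of all genes than any other alternative, so a pass there is not particular to these genes.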

Other observations

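MHC class II presents peptides to CD4+ T cells. Of 10 of its genes, all but *Ciita* were lowest in cKO replicate 2, beside 35.0% of all genes tested. None of the 10 had an unadjusted P value below 0.05, beside 6.95% of all genes higher and 3.77% lower. Their median log2 fold change was −0.27. *H2-Ab1* had 8749 and 9312 CPM in the WT libraries and 8691 and 6382 CPM in the cKO-labelled ones, and *Cd74*, the invariant chain, 16701 and 17628 CPM against 16585 and 12109 CPM. *Ciita*, the class II transactivator, which is related to *Nlrc5*, had 690.4 and 633 CPM against 694 and 840.5 CPM. Like *Nlrc5*, it was highest in cKO replicate 2, as were 34.8% of all genes tested. *H2-Ab1* and *Cd74* were lowest in that library.

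Among single transcripts, NM_001413208.1 of *Psmb9* was counted 20 and 22 times in WT and 0 times in either cKO-labelled library (FDR 0.560 over all transcripts). A minor transcript of *H2-K1*, NM_001403363.1, had 263 and 180 counts against 432 and 572 (log2 fold change 1.10, SE 0.34, FDR 0.627), and another, XM_030249505.2, went the other way, with 947 and 1043 counts against 765 and 774 (−0.44, SE 0.0900, FDR 0.558). These counts depend on how reads were assigned among transcripts.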
